A study of Mus musculus with 8 samples.

Results

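The genes described here encode the peptide hormones of islet cells other than beta cells, together with related peptides. They are Gcg, Sst, Ppy, Pyy, Ghrl, Npy, Cck, Gast and Ttr, 9 genes of the 55487 gene identifiers in each library table. They were taken from a fixed list of names, and all 9 were matched to an Ensembl identifier on the mouse build GRCm38. Transcripts were measured by RNA sequencing of hand-picked pancreatic islets from C57BL/6J mice. Mice entered a 2-week high-fat diet (60 kcal% fat) at 10 weeks of age, and this diet was common to every sample. The 5 Ide+/+ samples came from mice with an intact gene for insulin-degrading enzyme (IDE), a zinc protease whose substrates include insulin and glucagon. The 3 Ide-/- samples came from mice lacking it, and the labels do not say how the allele was made or in which cells it acts. The labels give female sex for all samples. The question was what loss of IDE does to islet transcripts under metabolic stress. Samples are labelled as biological replicates with no number of animals, so p-values measure the spread between these samples.

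Islets hold several endocrine cell types. Alpha cells make proglucagon (Gcg), whose cleavage by the convertase PC2 gives glucagon, the hormone that raises hepatic glucose output. Delta cells make somatostatin (Sst), which restrains both insulin and glucagon release through G protein-coupled receptors on neighbouring cells. PP cells make pancreatic polypeptide (Ppy), which shares a fold with peptide YY (Pyy) and neuropeptide Y (Npy). The rare epsilon cells make ghrelin (Ghrl). Cck and Gast encode cholecystokinin and gastrin, gut hormones with a common carboxy-terminal end, and Ttr encodes transthyretin, a carrier of thyroid hormone and retinol-binding protein that alpha cells express strongly.

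Gcg lies at 62474530 to 62483650 on chromosome 2 and Sst at 23889573 to 23890958 on chromosome 16, both on the minus strand (GENCODE M21, GRCm38). Ppy (102099930 to 102101319) and Pyy (102106676 to 102107832) are neighbours on the minus strand of chromosome 11, with 5356 bases between them. Promoters of 8 of the 9 genes were found in a RefSeq table of build GRCm38.p6 that gives 250 bases before and 50 bases after each start. The promoters of Gcg, Sst, Ppy and Pyy, the members with the highest transcript levels, are shown because these hormones carry the levels and ratios reported later. Capitals mark matches on either strand to the TATA box letters TATAAA (reverse TTTATA) or to the cAMP response element TGACGTCA, and the homeodomain core TAATTA was searched as well.
Gcg, chr2:62483604-62483903, minus strand: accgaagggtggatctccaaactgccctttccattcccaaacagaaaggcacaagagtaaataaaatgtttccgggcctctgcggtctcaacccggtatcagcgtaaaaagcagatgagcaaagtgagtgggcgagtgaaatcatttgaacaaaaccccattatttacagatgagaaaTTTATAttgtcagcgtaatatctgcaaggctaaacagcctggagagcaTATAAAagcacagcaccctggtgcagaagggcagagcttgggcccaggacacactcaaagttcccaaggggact
Sst, chr16:23890795-23891094, minus strand: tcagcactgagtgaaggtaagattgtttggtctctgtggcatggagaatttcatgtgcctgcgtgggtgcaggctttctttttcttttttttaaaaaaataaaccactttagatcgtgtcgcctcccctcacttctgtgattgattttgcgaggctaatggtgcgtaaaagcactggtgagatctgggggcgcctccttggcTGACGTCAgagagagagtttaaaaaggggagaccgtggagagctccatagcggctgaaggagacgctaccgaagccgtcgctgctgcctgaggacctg
Ppy, chr11:102101270-102101569, minus strand: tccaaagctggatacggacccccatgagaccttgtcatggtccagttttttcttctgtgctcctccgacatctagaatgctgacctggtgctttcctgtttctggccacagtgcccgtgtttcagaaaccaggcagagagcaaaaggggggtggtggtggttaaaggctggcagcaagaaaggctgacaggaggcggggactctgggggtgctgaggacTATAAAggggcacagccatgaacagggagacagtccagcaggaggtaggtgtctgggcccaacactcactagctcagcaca
Pyy, chr11:102107783-102108082, minus strand: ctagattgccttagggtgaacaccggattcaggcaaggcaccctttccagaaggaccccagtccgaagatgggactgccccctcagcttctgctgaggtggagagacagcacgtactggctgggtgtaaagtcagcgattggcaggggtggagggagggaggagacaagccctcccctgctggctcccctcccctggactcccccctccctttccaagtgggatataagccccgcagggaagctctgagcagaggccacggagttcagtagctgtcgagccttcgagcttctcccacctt
The Sst window held the only cAMP response element among the 8 windows, starting 48 bases before the RefSeq start, a motif with those letters in 1.79% of 32851 promoters. This RefSeq start lies 114 bases from the end of the GENCODE gene. TATAAA began 24 bases before the start in Gcg, 31 bases before it in Ppy and 28 bases before it in Gast, and Gcg had another match on the reverse strand 72 bases before the start. The TATA letters stood in 13.6% of all promoters. TAATTA, found in 5.29% of all promoters, was in none of the 8 windows, and no match means only that these letters are not there.

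Total expected counts, the RSEM estimates of the reads of each gene, were 19277303 to 33371662 in Ide+/+ and 7143424 to 17445976 in Ide-/- libraries. Ide had 256 to 765 counts in Ide+/+ and 4 to 7 in Ide-/- libraries. Against the label of female sex, the Y-linked gene Ddx3y was absent (0 counts) from Ide+/+ replicate 1 alone, with 503 to 2139 counts in the other 7 libraries. Xist reached 692 counts in that library and no more than 10.96 in the others. Ide+/+ replicates 2 and 3 resembled each other far more than any other pair did. Their counts gave a chi-square of 5.64 per degree of freedom over 16413 genes, against 55.6 to 682 for the other 12 pairs within a genotype. They differed by more than sampling noise, but this cannot tell 2 animals from 2 libraries of 1 animal or 1 RNA. The labels give them as separate biological replicates, so they were kept as 2 samples. Results are also given with both taken as 1. Acinar markers, genes of the exocrine cells around islets, took 23.3% to 40.7% of counts in Ide+/+ and 0.692% to 1.48% in Ide-/- libraries. All 30 of these markers were called lower in Ide-/- by edgeR, and none was at 0 in every library. Of other lists, 9 of 12 duct, 10 of 12 macrophage and 1 of 8 fibroblast genes were lower, 1 of 3 tested neuron and Schwann cell genes and 4 of 16 secretory granule genes were higher, and 0 of 10 endothelial genes were called. By the same test 10.4% of all tested genes were higher and 10.6% lower. Islet transcripts were abundant, with Ins1 and Ins2 together at 1.54% to 7.07% of counts in Ide+/+ and from 12.7% upward in Ide-/-. In bulk RNA, fewer cells of a type and less transcript per cell cannot be told apart.

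Levels between genes were compared in TPM, the deposited values corrected for transcript length. The 9 genes together took 2.51% to 10.8% of all TPM in Ide+/+ and 9.52% to 13.5% in Ide-/- libraries. Gcg came first, with a median of 40048 TPM over the 8 libraries, followed by Ppy (20579), Pyy (15476), Sst (4006), Ttr (1019), Ghrl (13.8), Npy (4.91), Gast (0.855) and Cck (0). Some neighbours in that order changed place between libraries. Gcg was above Ppy in 7 of 8 libraries, Ppy above Pyy in 6, and Ghrl above Npy in 5, so these pairs had no fixed order. Pyy was above Sst, Sst above Ttr, Ttr above Ghrl, Npy above Gast and Gast above Cck in all 8 libraries. Ghrl varied most among the members with counts in every library, 22.2-fold between the lowest and the highest library, and Npy least, 3.71-fold.

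**Figure D1:**
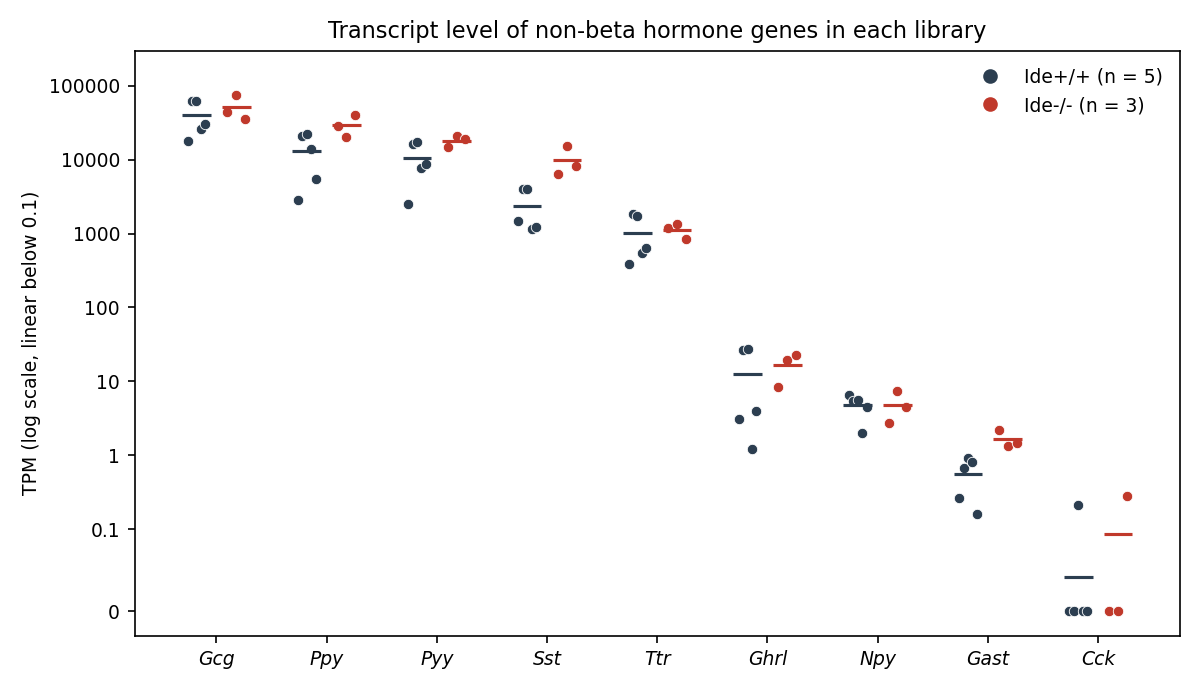
TPM (log scale, linear below 0.1) of the 9 genes in each of the 5 Ide+/+ (dark) and 3 Ide-/- (red) libraries, with horizontal lines at group means. Sst is the abundant member whose Ide-/- points, 6495 to 15299 TPM, all lie above the Ide+/+ points, 1171 to 4039 TPM.

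Genotypes were compared with edgeR's quasi-likelihood test over all genes, on counts scaled between libraries by TMM (trimmed mean of M values). Levels are given as CPM of the effective library size, the total count of tested genes multiplied by the TMM factor. These factors were 0.405, 1.18, 1.15, 0.641 and 0.484 in Ide+/+ replicates 1 to 5. In Ide-/- replicates 1 to 3 they were 2.06, 1.86 and 1.53, above every Ide+/+ factor. A CPM value is therefore not a share of the library's counts. Gcg in Ide+/+ replicate 1, at 38362 CPM, took 1.55% of counts. A gene was called at a Benjamini-Hochberg adjusted p under 0.05. Of the 9 genes 8 passed the low-count filter, Cck being the exception. Of these 8, 1 was called higher (Sst) and 0 lower in Ide-/- islets. Over all 16266 tested genes 21.1% were called, 10.4% higher and 10.6% lower, so 1 call of 8 is no larger a share than the background. With Ide+/+ replicates 2 and 3 as 1 library, 0 of the 8 were called, where 18.9% of all genes were, and with scaling on secretory granule genes 0 of the 8, where 9.77% were.

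**Figure D2:**
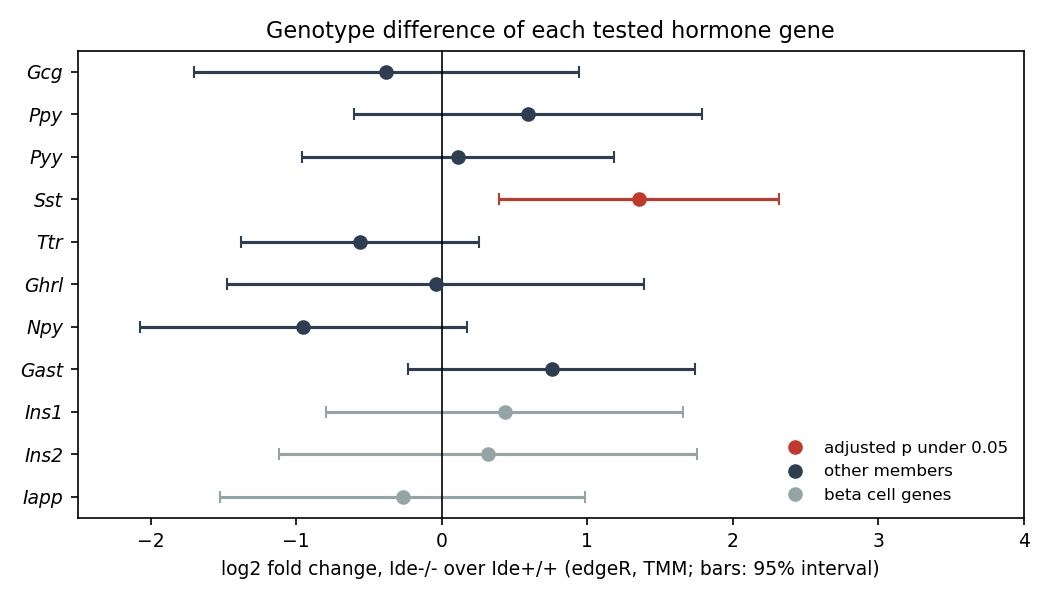
Log2 fold change of Ide-/- over Ide+/+ for the 8 tested members and 3 beta cell hormone genes, with 95% intervals from edgeR. Only the interval of Sst, 0.39 to 2.32, lies wholly on one side of 0 among the genes plotted.

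Sst had 2059, 2217, 2258, 1089 and 1462 CPM in Ide+/+ replicates 1 to 5. The Ide-/- replicates had 2636, 6683 and 4630 CPM. All 3 Ide-/- values were above all 5 Ide+/+ values, with Ide-/- replicate 1 only just above the highest Ide+/+ library. Genotypes did not overlap in 33.0% of tested genes, with Ide-/- above in 17.4%. The group means were 1817 ± 517 (SD, n = 5) and 4650 ± 2024 CPM (SD, n = 3), a 2.56-fold difference in the fit. On the log2 scale that is 1.36 (SE 0.44) with an adjusted p of 0.0474 by edgeR's quasi-likelihood test, close to the threshold.

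The call for Sst was lost in 12 of 18 alternative settings, while the direction was the same in all 18. Leaving out any 1 of the 8 libraries other than Ide+/+ replicate 1 ended it, with values from 0.99 (adjusted p = 0.225, without Ide-/- replicate 2) to 1.64 (adjusted p = 0.0508, without Ide-/- replicate 1). With Ide+/+ replicates 2 and 3 as 1 library it was 1.44 (adjusted p = 0.0585), and without Ide+/+ replicate 1 it was 1.40 (adjusted p = 0.0346, edgeR). DESeq2 gave 1.35 (adjusted p = 8.8e-04) and limma-voom 1.38 (adjusted p = 0.0408). A fit with the acinar share as covariate gave 0.54 (SE 0.99, adjusted p = 0.818), a fit in which covariate and genotype cannot be told apart, because no Ide+/+ library had an acinar share near those of Ide-/-.

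**Figure D3:**
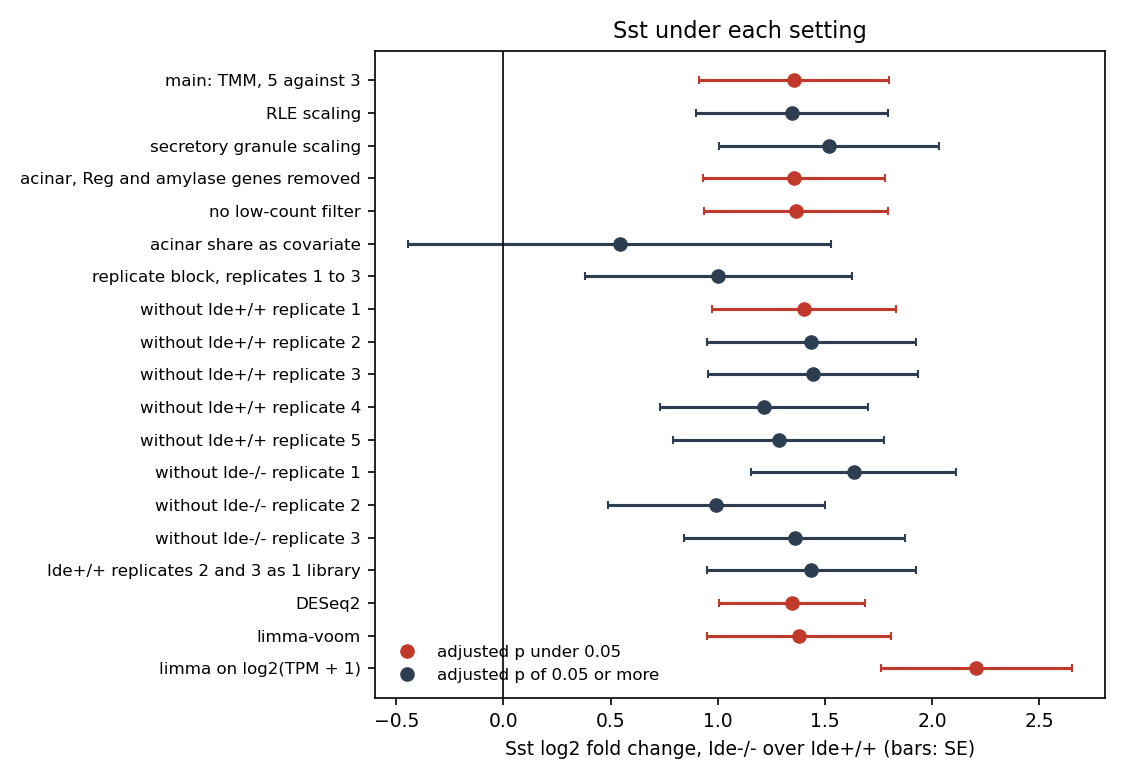
Log2 fold change of Sst (Ide-/- over Ide+/+, bars show SE) in the comparison and 18 alternatives, red where the adjusted p was under 0.05. All points lie above 0, from 0.54 with the acinar share as a covariate to 2.21 on log2(TPM + 1) values.

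Gcg, the most abundant member, had 38362, 52965, 55121, 37537 and 57295 CPM in Ide+/+ replicates 1 to 5. In Ide-/- libraries it had 27931, 52145 and 31238 CPM. The lowest values were Ide-/- replicates 1 and 3, while Ide-/- replicate 2 lay between Ide+/+ replicates 1 and 2, so the groups overlapped. EdgeR gave a log2 fold change of -0.38 (SE 0.61, 95% interval -1.70 to 0.95, adjusted p = 0.689, edgeR). On log2(TPM + 1) values the difference was 0.48 (adjusted p = 0.402, limma). On that scale the median of all genes was itself 0.50 against -0.01 on the TMM scale, so every TPM value read between genotypes carries that shift.

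Ttr had 956, 1799, 1784, 900.2 and 1370 CPM in Ide+/+ replicates. Its Ide-/- replicates had 857, 1059 and 857 CPM. The values of Ide-/- replicates 1 and 3 were below every Ide+/+ library and replicate 2 was not. By edgeR the difference was -0.56 on the log2 scale (SE 0.38, adjusted p = 0.307), and on log2(TPM + 1) by limma it was 0.40 (adjusted p = 0.463). Ttr and Gcg moved together across libraries. After each gene was centred on its own mean over the 8 libraries, log2 CPM of Ttr and Gcg differed by a root mean square of 0.24, the smallest value among the pairs of tested members, whose other pairs ranged from 0.49 to 1.42. Of 5665 genes averaging 10 CPM or more, only 7 lay closer to Gcg than Ttr did.

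Ppy had 2426, 6996, 7726, 8130 and 4033 CPM in Ide+/+ libraries. The Ide-/- libraries had 7111, 5503 and 13903 CPM. The highest value was Ide-/- replicate 3 and the lowest Ide+/+ replicate 1, with the rest interleaved. The difference on the log2 scale was 0.59 (SE 0.55, 95% interval -0.60 to 1.79, adjusted p = 0.464, edgeR). Its sign turned with the acinar covariate (-0.90, adjusted p = 0.759).

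Pyy, the neighbour of Ppy, had 2456, 6243, 6989, 5085 and 7300 CPM in Ide+/+ libraries. Those of Ide-/- had 4243, 6401 and 7564 CPM. Ide+/+ replicate 1 was again lowest, and the other libraries of both genotypes overlapped. EdgeR gave a log2 difference of 0.11 (SE 0.49, 95% interval -0.96 to 1.19, adjusted p = 0.890). The sign of Pyy turned with the acinar covariate (-1.08, adjusted p = 0.655) and, at -0.08, without Ide+/+ replicate 1 or Ide-/- replicate 3.

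The remaining members were rare transcripts. Ghrl, the ghrelin gene at 113716119 to 113719880 on chromosome 6, had 24, 357, 272, 11 and 27 counts in Ide+/+ and 79, 131 and 87 counts in Ide-/- replicates. Scaled, Ide+/+ stood at 2.40, 9.09, 9.67, 0.648 and 2.90 CPM, and Ide-/- at 2.20, 5.33 and 7.98. The 2 highest values were Ide+/+ replicates 2 and 3, the pair of near-identical libraries, and the other 3 Ide+/+ libraries were at or below 2.90 CPM. EdgeR gave -0.04 on the log2 scale (SE 0.66, adjusted p = 0.972), and 0.30 (adjusted p = 0.776) with that pair as 1 library. Its sign also turned with granule scaling (0.19) and on log2(TPM + 1) (1.03). An antisense transcript, Gm26982, overlaps Ghrl and had 1 to 23 counts per library. No source used here says whether counting used strand, so reads of the 2 genes may not be separable.

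Npy encodes a peptide that sympathetic nerve endings release and some islet cells make. It had 6.71, 2.16, 2.35, 1.35 and 3.86 CPM in Ide+/+ libraries. In Ide-/- it had 0.808, 2.36 and 1.83 CPM. These rest on 20 to 85 counts. Ide+/+ replicate 1 was highest and Ide-/- replicate 1 lowest, and the groups overlapped. The fitted difference was -0.95 on the log2 scale (SE 0.52, adjusted p = 0.205, edgeR), and 1.01 (adjusted p = 0.699) with the acinar covariate. Among the neuron markers Th, the rate-limiting enzyme of catecholamine synthesis, was also highest in Ide+/+ replicate 1 (28.96 CPM, against 4.40 to 7.29 CPM in the other 7 libraries), while Dbh, which completes noradrenaline synthesis, had 0 counts in every library. The summed neuron and Schwann cell list was 34.4 CPM in Ide+/+ replicate 1 and 13.7 to 23.5 CPM elsewhere, and its part in the Npy values was not tested.

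Gast had 2, 8, 8, 7 and 1 counts in Ide+/+ and 18, 8 and 5 counts in Ide-/- libraries, or 0.107 to 0.412 and 0.325 to 0.501 CPM. The CPM values overlapped, and edgeR gave 0.76 on the log2 scale (SE 0.45, adjusted p = 0.252). Cck had 2 counts in Ide+/+ replicate 3, 1 count in Ide-/- replicate 3 and 0 in the other 6 libraries. A count of 0 there allows up to 0.0764 to 0.322 CPM, the level of 3 counts, and this limit covers counting error only. Both genotypes were at or under it for Cck, so no fold is given.

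On log2(TPM + 1) values, tested with limma, 3 members were called higher in Ide-/- islets in place of 1. These were Sst (2.21, adjusted p = 0.0017), Ppy (1.51, adjusted p = 0.0402) and Gast (0.79, adjusted p = 0.0114). The same setting called 5987 genes higher and 412 lower, with the shift of 0.50 in the median of all genes, so only part of each value lies above that median. The acinar RNA counted in the TPM total, 23.3% to 40.7% of counts in Ide+/+ and at most 1.48% in Ide-/- libraries, moved with this shift, and its part in it was not tested.

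Ratios of members within a library do not depend on how libraries are scaled. In all, 17 such ratios of TPM were computed: the 10 pairs among Gcg, Sst, Ppy, Pyy and Ttr, and 7 members over the sum of Ins1 and Ins2. Log2 ratios were compared between genotypes by an exact permutation test (two-sided, 56 arrangements of the labels), for which 0.0179 is the smallest possible p. Genotypes were fully separated in 2 ratios and overlapped in 15.

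The ratio of Sst to Gcg was 0.0833, 0.0651, 0.0637, 0.0450 and 0.0399 in Ide+/+ replicates 1 to 5. It was 0.147, 0.1996 and 0.232 in Ide-/- replicates 1 to 3. Every Ide-/- library thus had more somatostatin transcript per glucagon transcript than any Ide+/+ library, and the lowest Ide-/- value was well clear of the highest Ide+/+ value. The geometric means differed 3.30-fold (log2 difference 1.72, exact permutation p = 0.0179). Adjusted over the 17 ratios the p was 0.152, and with 56 arrangements no set of 2 separated ratios among 17 can pass 0.05. The difference was 1.58 to 1.91 when any 1 library was left out, with full separation each time (exact permutation p = 0.0286 or 0.0476, the smallest those sample numbers allow). It was 1.76 with Ide+/+ replicates 2 and 3 as 1 value (exact permutation p = 0.0286).

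Sst to Ttr behaved alike, since Ttr tracked Gcg. Ide+/+ libraries had 3.87, 2.21, 2.28, 2.17 and 1.92 Sst transcripts per Ttr transcript. Ide-/- libraries had 5.51, 11.3 and 9.66. The geometric means differed 3.51-fold (exact permutation p = 0.0179, adjusted p = 0.152). These 2 ratios share Sst and are not independent of each other or of the Sst result above. The ratio of Ttr to Gcg itself was the steadiest of the 17, at 0.0208 to 0.0294 in Ide+/+ and 0.0176 to 0.0266 in Ide-/- libraries. It differed 1.67-fold between its extremes over all 8 libraries, while the other 16 ratios differed 3.31-fold to 14.7-fold.

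**Figure D4:**
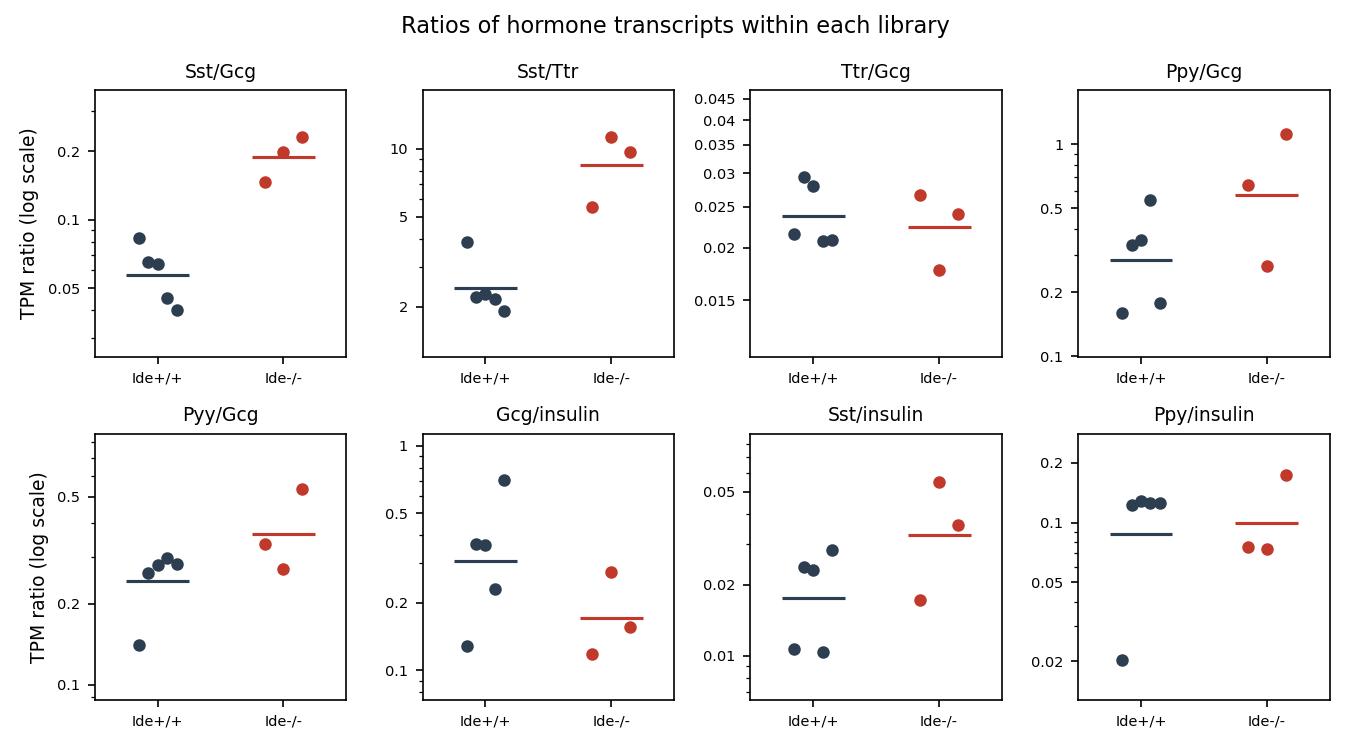
TPM ratios (log scale) within each Ide+/+ (dark, n = 5) and Ide-/- (red, n = 3) library, with lines at geometric means and insulin standing for Ins1 plus Ins2. Sst/Gcg and Sst/Ttr separate the genotypes, Ttr/Gcg stays within 0.0176 to 0.0294, and the other panels overlap.

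Against insulin transcripts the separation was not seen. Sst to insulin was 0.0107, 0.0239, 0.0231, 0.0103 and 0.0281 in Ide+/+ libraries. For Ide-/- it came to 0.0173, 0.0549 and 0.0360. Ide-/- replicate 1 lay inside the Ide+/+ range, and the log2 difference of 0.88 had an exact permutation p of 0.179 (adjusted p = 0.331). Gcg to insulin was 0.128, 0.367, 0.363, 0.230 and 0.705 in Ide+/+ libraries. For Ide-/- it came to 0.118, 0.275 and 0.156. All 3 Ide-/- values were below the Ide+/+ mean on the log2 scale (difference -0.84, exact permutation p = 0.196), but the lowest Ide+/+ values, those of replicates 1 and 4, lay among them. The Ide+/+ libraries alone spanned 2.46 on the log2 scale in this ratio. Of the ratios to insulin, that of Npy differed most (log2 difference -1.33, exact permutation p = 0.107, adjusted p = 0.304), with overlap. Without Ide+/+ replicate 4, Npy to insulin separated the genotypes (exact permutation p = 0.0286). Npy had only 20 to 85 counts per library.

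With all 8 libraries, no ratio with Ppy or Pyy separated the genotypes. Ppy to Gcg ran from 0.159 to 0.544 in Ide+/+ libraries, against 0.267 to 1.12 in Ide-/- (log2 difference 1.02, exact permutation p = 0.161). Pyy to Gcg ran from 0.140 to 0.297 in Ide+/+ libraries, against 0.271 to 0.535 in Ide-/- (0.58, exact permutation p = 0.143). Ppy to Pyy, the pair of neighbours, ran from 0.633 to 1.83 in Ide+/+ libraries, against 0.984 to 2.10 in Ide-/- (0.44, exact permutation p = 0.339). Ppy to Ttr ran from 7.40 to 26.2 in Ide+/+ libraries, against 15.1 to 46.8 in Ide-/- (1.11, exact permutation p = 0.0893). Without Ide+/+ replicate 4 this ratio separated the genotypes (1.39, exact permutation p = 0.0286). Pyy to Ttr ran from 6.52 to 14.3 in Ide+/+ libraries, against 12.6 to 22.3 in Ide-/- (0.67, exact permutation p = 0.107). Ide+/+ replicate 1 had little of both transcripts per insulin transcript, with Ppy to insulin at 0.0204 against 0.123 to 0.129 in the other 4 Ide+/+ libraries. Without that library, Sst to Pyy also separated the genotypes (log2 difference 1.48, exact permutation p = 0.0286, against 1.14 and p = 0.0893 with it).

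As shares of the summed TPM of Ins1, Ins2, Gcg, Sst, Ppy, Pyy and Ghrl, the non-beta hormones made up 15.03%, 37.9%, 38.2%, 30.2% and 51.4% in Ide+/+ and 20.02%, 32.35% and 31.02% in Ide-/- libraries. The Ide-/- shares lay within the Ide+/+ range. Among the 5 non-beta hormones alone, Gcg made up 53.0% to 72.3% in Ide+/+ and 34.6% to 57.6% in Ide-/- libraries. Sst made up 2.38% to 6.02% in Ide+/+ and 6.91% to 11.5% in Ide-/- libraries, without overlap. Ppy made up 11.5% to 28.8% and 15.3% to 38.8%, and Pyy 10.2% to 18.8% and 15.6% to 18.5%. These shares sum to a whole, so they restate the ratios and were not tested.

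**Figure D5:**
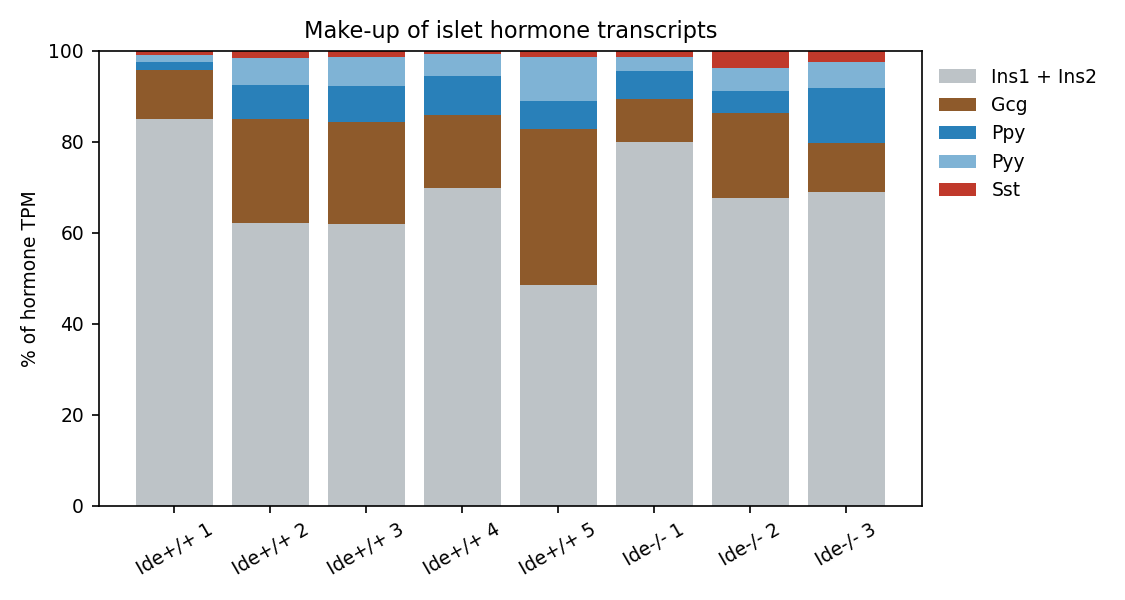
Percent of summed hormone TPM taken by insulin (Ins1 plus Ins2), Gcg, Ppy, Pyy and Sst in each library (Ghrl, under 0.01%, is not drawn). Insulin ranges from 48.6% in Ide+/+ replicate 5 to 84.97% in Ide+/+ replicate 1, a wider spread than the 67.65% to 79.98% of the Ide-/- libraries.

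Genes that mark the same cell types were read beside the hormones. None of 4 delta cell genes was called by edgeR (1 at an unadjusted p under 0.05, Prg4), with a median log2 fold change of 0.31 against -0.01 for all tested genes. Rbp4, a retinol carrier abundant in delta cells, had 179 ± 28.3 CPM (SD, n = 5) in Ide+/+ and 224 ± 74.5 CPM (SD, n = 3) in Ide-/- libraries, with 293 CPM in Ide-/- replicate 2, the library with the most Sst. Hhex, the transcription factor of delta cell identity, had 7.54 ± 3.06 and 4.16 ± 2.35 CPM, the opposite direction to Sst (-0.86, adjusted p = 0.159, edgeR). Without Ide+/+ replicate 1, Hhex was called lower (-1.05, adjusted p = 0.0341, edgeR). Prg4 and Ghsr, the ghrelin receptor gene, were named after their values were seen. By edgeR they differed by 1.05 (adjusted p = 0.0721) and 0.29 (adjusted p = 0.718) on the log2 scale. Both were rare, Prg4 at 0.37 ± 0.14 and 0.80 ± 0.10 CPM and Ghsr at 0.62 ± 0.36 and 0.81 ± 0.53 CPM. In Ide+/+ replicate 5 both stood at 0.322 CPM, the level of 3 counts there. DESeq2 and limma-voom called 0 of the 4 delta cell genes, and limma on log2(TPM + 1) called 2 higher, where it called 5987 of all 16266 tested genes higher.

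Of 8 alpha cell genes 2 were lower and 0 higher, with a median of -0.61. Over all tested genes 10.6% were lower and 10.4% higher, the background also for the PP cell genes below. Slc38a5, an amino acid transporter gene, fell from 123 ± 65.0 to 11.6 ± 4.25 CPM (log2 fold change -3.40, adjusted p = 0.0011, edgeR). Its Ide+/+ values of 197, 57.4, 62.0, 117 and 181 CPM stood beside acinar shares of 40.7%, 23.3%, 23.6%, 37.2% and 36.7% of counts, and the part of acinar RNA in this difference was not tested. The call was lost in the fit with that share as covariate (-0.15, adjusted p = 0.928), where share and genotype cannot be told apart. Irx1, an alpha cell homeobox gene, had 1.57 ± 0.67 and 0.562 ± 0.29 CPM and was called lower (-1.42, adjusted p = 0.0463), a call lost without any 1 library other than Ide+/+ replicate 1 (adjusted p = 0.0524 to 0.145). Without Ide+/+ replicate 1, 5 of the 8 alpha cell genes were called lower, where 2139 of 16028 tested genes were. Of 5 tested PP cell genes 1 was lower, the gene Thsd7a (-1.07, adjusted p = 0.0425), a call lost without any 1 library other than Ide+/+ replicate 1. On log2(TPM + 1) Thsd7a differed by 0.12, the other direction.

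Of 10 beta cell genes edgeR called 0 (1 at an unadjusted p under 0.05, Ucn3, named after its value was seen), DESeq2 and limma-voom called 0, and limma on log2(TPM + 1) called 4 higher. That last setting called 5987 of all 16266 tested genes higher, so 4 of 10 stands near the background. On the log2 scale Ins1 differed by 0.43 (adjusted p = 0.615), Ins2 by 0.32 (adjusted p = 0.760) and Iapp, the amylin gene, by -0.27 (adjusted p = 0.769). Of 7 tested genes for factors common to endocrine cells 1 was higher by edgeR, where 10.4% of all tested genes were. Rfx6, a factor needed for islet cell formation, rose from 38.4 ± 4.76 to 74.1 ± 5.09 CPM (0.95, adjusted p = 0.0053, edgeR). The Rfx6 call was lost with the acinar covariate (0.40, adjusted p = 0.662, edgeR). In that fit acinar share and genotype cannot be told apart, and only 12 of 16266 tested genes were called. The Rfx6 call was also lost in a fit of replicates 1 to 3 blocked by replicate number (0.96, adjusted p = 0.0765, edgeR). The blocked fit uses fewer samples, and the replicate numbers do not pair the samples.

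Of 7 tested genes that process prohormones 1 was higher and 1 lower, where 10.4% of all tested genes were higher and 10.6% lower. Pam, which amidates the ends of peptides such as pancreatic polypeptide and peptide YY, rose from 140 ± 18.3 to 242 ± 15.4 CPM (log2 fold change 0.79, adjusted p = 0.0256, edgeR). That call was lost without Ide+/+ replicate 4 or any 1 Ide-/- library (adjusted p = 0.0681 to 0.0926). Qpct, which cyclizes amino-terminal glutamine, fell from 6.25 ± 1.55 to 2.06 ± 0.89 CPM (-1.64, adjusted p = 0.0051, edgeR). The Qpct call was lost on log2(TPM + 1) (-0.46, adjusted p = 0.189, limma) and with the acinar covariate (-0.62, adjusted p = 0.695, edgeR). With that covariate, acinar share and genotype cannot be told apart. Pcsk2, the convertase that releases glucagon, had 767 ± 157 and 668 ± 103 CPM, was not called (-0.20, adjusted p = 0.676), and was named after its values were seen.

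Receptors of these hormones moved in both directions. Of 15 receptor genes 7 were tested, 1 was higher and 2 were lower, where 10.4% of all tested genes were higher and 10.6% lower. Sstr3, a somatostatin receptor gene of beta cells, had 12.5, 19.96, 17.9, 12.8 and 10.5 CPM in Ide+/+ libraries. Those of Ide-/- stood at 28.4, 24.6 and 44.0 CPM. All Ide-/- values lay above the Ide+/+ values (log2 fold change 1.12, SE 0.25, adjusted p = 0.0111, edgeR), a call lost without Ide-/- replicate 3 (0.83, adjusted p = 0.0680). Under the acinar covariate its sign turned (-0.13, adjusted p = 0.926), in a fit where acinar share and genotype cannot be told apart.

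Sstr2, the somatostatin receptor gene of alpha cells, had 3.41, 3.18, 3.98, 3.83 and 4.94 CPM in Ide+/+ libraries. Those of Ide-/- stood at 1.25, 0.813 and 0.733 CPM. The groups were far apart (-1.99, SE 0.30, adjusted p = 0.0013, edgeR), and the call held without each library in turn. It was lost on log2(TPM + 1) (-0.52, adjusted p = 0.0858, limma) and with the acinar covariate (-1.73, adjusted p = 0.280), which cannot be told apart from genotype. Cckar, the cholecystokinin receptor gene of acinar cells, fell from 153 ± 101 to 1.54 ± 0.58 CPM (-6.65, adjusted p = 3.4e-04), close to the median of -6.34 for the acinar markers. Among 15 other peptide genes, 4 were tested and, against 10.6% lower over all tested genes, 1 was lower. That gene, Gal, which encodes the neuropeptide galanin, had 319, 32.3, 33.1, 156 and 205 CPM in Ide+/+ libraries. With 0.724, 1.14 and 3.03 CPM, all Ide-/- libraries were far lower (-6.65, adjusted p = 0.0013, edgeR). Its 2 lowest Ide+/+ values were those of replicates 2 and 3, the near-identical pair, which also had the lowest acinar shares of that group. The part of acinar RNA in the Gal difference was not tested.

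Genes with the profile most like each abundant member were taken by the smallest root mean square difference in centred log2 CPM over the 8 libraries, among 5665 genes. For Gcg these were Cadm1 (0.16), Trim35 (0.20) and Cryba2 (0.22), and among those for Ttr were Arrdc3 (0.18) and Prox1 (0.24). For Sst they were Mrln (0.35), Xrcc6 (0.39) and Trim39 (0.40). Sst had the largest differences to its nearest genes of the 5 members examined, and it also varied most. Its root mean square about its own mean was 0.79, against 0.38 for Gcg, 0.43 for Ttr, 0.51 for Pyy and 0.70 for Ppy. The differences were not scaled to this spread. For Ppy they were Tsc2 (0.29), Rnf213 (0.31) and Gramd1a (0.32), and for Pyy they were Tm4sf1 (0.18), Adgrf5 (0.18) and Map4 (0.18). These 8 points share library depth and the scaling between libraries, and the measure is a description only.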

How the data were processed

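RNA from hand-picked islets was sequenced in 5 Ide+/+ and 3 Ide-/- samples, grouped by the genotype in the labels. Libraries came from 100 ng of total RNA with a low-input NEB kit, per the labels' protocols. STAR 2.7.1a, RSEM 1.3.1 and build GRCm38 are named in the submitters' processing notes. The annotation release and strand setting are not given in the sources used here. For each sample the authors deposited 1 RSEM table with an expected count, an unnormalized estimate of reads per gene, and a TPM value, which accounts for transcript length.

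Expected counts were rounded and tested with edgeR 4.0.16 (R 4.3.3): quasi-likelihood F test, robust dispersion, TMM, filterByExpr with a minimum count of 10 and a total of 15, genotype as the only term, Benjamini-Hochberg adjustment over all tested genes. Standard errors were derived from the F statistic. DESeq2 1.42.0, limma 3.58.1 and the other alternatives are described in the closing section. Likeness used log2 CPM with a prior count of 2. Symbols came from GENCODE M21 (55141 of 55487 identifiers). Named genes were Ide, the members, Ins1, Ins2, Iapp, from every list the called genes with the smallest p (at most 3) or, with none called, the 2 of highest CPM, and the 3 nearest genes of 5 members. Some genes that the rule names are not reported here. Values of genes that the rule takes from the duct, endothelial, macrophage, fibroblast and granule lists are left out. The members and lists were chosen with earlier results of these data known.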

Additional observations from a re-analysis of the deposited data

Results flagged for a closer look

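In the group of 5 Ide+/+ libraries, 26 sets of values (9 gene levels and 17 ratios) were screened for a library far from the others by Dixon's test, which chance passes in about 1 of 20 groups, and 6 passed. Ide+/+ replicate 1, whose Ddx3y and Xist counts also set it apart, accounted for 4 of them. Its Ppy to insulin TPM ratio was 0.0204 against a group median of 0.125, and its Pyy to Gcg ratio was 0.140 against 0.280. Its Sst to Pyy ratio was 0.593 against 0.228, and its Sst to Ttr ratio was 3.87 against 2.21. Ide+/+ replicate 4 had a Ppy to Ttr ratio of 26.2 against a median of 11.4. Ide+/+ replicate 3 was the only Ide+/+ library with any Cck, at 0.0711 CPM, which rests on 2 counts.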

How the results depend on the processing

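Both calls and directions depended on the processing. Against 1699 genes higher and 1727 lower, scaling on secretory granule genes gave 768 and 821, the acinar share as covariate 1 and 11, and limma on log2(TPM + 1) 5987 and 412. Leaving out 1 library at a time gave 694 to 2141 higher and 809 to 2139 lower. Of the members, 1 was called higher. The number was 0 with RLE scaling, granule scaling, the acinar covariate, or Ide+/+ replicates 2 and 3 as 1 library (an alternative chosen after seeing the data), 3 on log2(TPM + 1), and 0 to 1 with 1 library left out. No member was called lower in any of 18 alternatives. Genes of the 8 endocrine, processing, receptor and peptide lists called numbered 3 higher and 7 lower. These lists held 4 to 10 tested genes each, and over all tested genes 10.4% were higher and 10.6% lower. The list counts were 0 and 0 with the acinar covariate and 17 and 3 on log2(TPM + 1). With 1 library left out they were 1 to 5 higher and 5 to 11 lower. Among the 8 tested members, Sst and Gast kept their sign in every alternative run. Gcg (0.48) and Ttr (0.40) turned on log2(TPM + 1), Ppy (-0.90), Pyy (-1.08) and Npy (1.01) with the acinar covariate, and Ghrl under several settings (up to 1.03). Sstr3 turned to -0.13 with the acinar covariate and Thsd7a to 0.12 on log2(TPM + 1). The cause of these changes was not tested. Ratios with an exact permutation p under 0.05 numbered 2, and 2 to 4 with 1 library left out (4 without Ide+/+ replicate 4). The replicate numbers do not pair the samples (same-numbered deviations correlated at -0.01, -0.05 and -0.07). With the replicate block on replicates 1 to 3, which uses fewer samples, 482 genes were higher and 648 lower, with 0 members called and 0 list genes higher and 6 lower. The block leaves 0 ratios under 0.05, but with 3 pairs an exact p cannot go below 0.25, so that says nothing about the ratios. Sst to Gcg then differed by 1.43 and Sst to Ttr by 1.65. Depth limits Cck, Gast, Npy and Ghrl, each with at most 20 counts in at least 1 library.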
